A study of Caenorhabditis elegans with 8 samples.

Results

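The Hedgehog-related and patched-related genes of Caenorhabditis elegans were taken as all genes whose WormBase symbol begins with wrt, grl, grd, qua, hog, ptr or ptc. The rule found 85 genes of the 46739 listed in the count files: 10 wrt, 16 grd, 31 grl, 1 qua and 1 hog gene on the side of the secreted proteins, and 24 ptr and 2 ptc genes on the side of the receptor-like proteins. It used names only and no measured value. RNA of whole worms had been sequenced in 4 libraries of worms given 5-Ph-IAA and 4 libraries of worms given ethanol. All worms had the genotype labelled neuronal DAF-15 AID, were fed E. coli OP50, were treated for 24 h starting at the L4 stage, and were taken as day 1 adults. AID is the auxin-inducible degron, with which an auxin analog such as 5-Ph-IAA marks a tagged protein for destruction, here DAF-15, the worm Raptor subunit of the TORC1 kinase. The labels name neither the promoter behind the neuronal restriction nor the dose, and worms without the degron were not analysed here, so effects of 5-Ph-IAA itself and of losing DAF-15 cannot be told apart.

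In flies and vertebrates, Hedgehog is a secreted protein whose carboxy-terminal Hog domain cuts the precursor and attaches cholesterol to the signalling part, which then binds the receptor Patched. The worm has no canonical Hedgehog and no Smoothened. It has instead families of secreted proteins named after their amino-terminal domains: warthog (wrt), groundhog (grd), ground-like (grl) and quahog (qua). Some of the wrt and grd genes and qua-1 also code for a Hog domain, after which hog-1 is named, whereas the grl genes do not. Patched (ptc) and patched-related (ptr) proteins span the membrane many times and carry a sterol-sensing domain. Genes of these families are known from the worm's epidermis, seam cells, glia and other cells that line body surfaces, and many are needed for molting.

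None of these genes passed the threshold in either direction. Of the 85 genes, 35 had enough reads to be tested, and of these 0 rose and 0 fell with 5-Ph-IAA in edgeR's quasi-likelihood test at an adjusted p under 0.05 (the lowest adjusted p was 0.799). Among all 12021 genes tested, 12 passed, or 0.0998%, of which 10 were higher (0.0832%) and 2 lower (0.0166%). With the replicate number as a block, 0 of the 35 passed (lowest adjusted p = 0.321), beside 0.732% of all tested genes (0.474% higher and 0.258% lower). None of the 35 passed with DESeq2 or limma-voom. At an unadjusted p under 0.05 there were 3 of the 35 without the block, or 8.57%, beside 4.41% of all tested genes, and 3 of the 35 with it, beside 6.91%. They were ptr-22, ptr-21 and grd-4 in both fits. Of these, ptr-22 passed the filter on low counts only through the 5-Ph-IAA libraries, in which it was higher. The log2 fold changes of the 35 had a median of 0.0052 and lay between -0.48 and 1.16, with 19 above 0 and 16 below, beside 49.7% of all tested genes above 0 and an all-gene median of -0.00094. In whole-worm RNA, fewer cells of a type and less RNA per cell cannot be told apart.

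Read numbers differed widely between the members. In young adults most of the secreted-protein genes had few reads: of the 59 genes on that side 15 were tested, while of the 26 receptor-like genes 20 were. Summed over the 8 libraries, 2 members had no read, 23 had 1 to 9 reads, 27 had 10 to 99, 20 had at least 100 but under 1000, and 13 had 1000 or more. Within the grl family 17 of 31 genes had 1 to 9 reads and 1 had over 1000, and both ptc genes had over 1000. The genes without a read were wrt-8 and grd-8, and a count of 0 in all 8 libraries allows a level of up to 0.0433 CPM (3 reads over the 8 libraries, counting error only). CPM, the usual counts-per-million unit, was taken here over the reads in genes, on library sizes scaled with TMM factors.

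**Figure D1:**
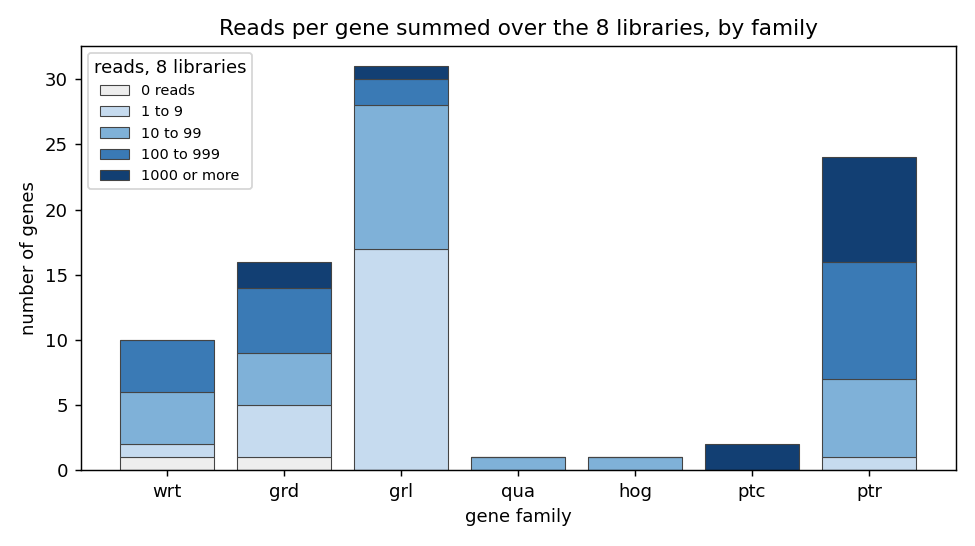
Number of genes of each family (vertical axis) by the reads they collected over the 8 libraries together (shades, from 0 reads to 1000 or more). Most of the 31 grl genes stand under 100 reads, while 17 of the 24 ptr genes and both ptc genes have 100 or more.

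Added over all members, the levels of the groups differed by less than the spread between libraries. The 85 genes together held 1161, 1122, 1162 and 1166 CPM in 5-Ph-IAA replicates 1 to 4, and 1161, 1076, 1222 and 1162 CPM in ethanol replicates 1 to 4. The 5-Ph-IAA libraries lay within the range of the ethanol libraries. The secreted-protein genes summed to 246 ± 6.83 CPM with 5-Ph-IAA and 253 ± 15.2 CPM with ethanol (SD, n = 4 each). The receptor-like genes summed to 906 ± 18.7 CPM with 5-Ph-IAA and 902 ± 56.3 CPM with ethanol. A pair of receptor-like genes, ptc-1 and ptr-2, made up 53.97% of the members' reads with 5-Ph-IAA and 54.05% with ethanol.

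Levels of different genes are compared here per length, as the CPM divided by the kilobases of exon (RPKM), averaged over the 8 libraries. The highest levels belonged to a pair of groundhog genes, grd-5 at 129 RPKM and grd-3 at 125 RPKM. They stood at rank 1020 and 1060 of the 12021 tested genes, and their libraries overlapped (117.7 to 148.3 and 115.4 to 137.1 RPKM), so their order is within the spread. Next came ptr-2 at 80.4 RPKM and ptc-1 at 76.5 RPKM, whose libraries also overlapped each other but not those of grd-3. After a gap followed grl-4 (25.9 RPKM), grd-14 (20.4), ptr-24 (16.2), grl-10 (13.96), grd-13 (13.4), ptr-13 (13.1) and grd-10 (10.6), each overlapping its neighbours. In all, 11 members reached 10 RPKM and 30 reached 1 RPKM. The median over the 35 tested members was 5.37 RPKM, beside 17 RPKM over all tested genes.

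**Figure D2:**
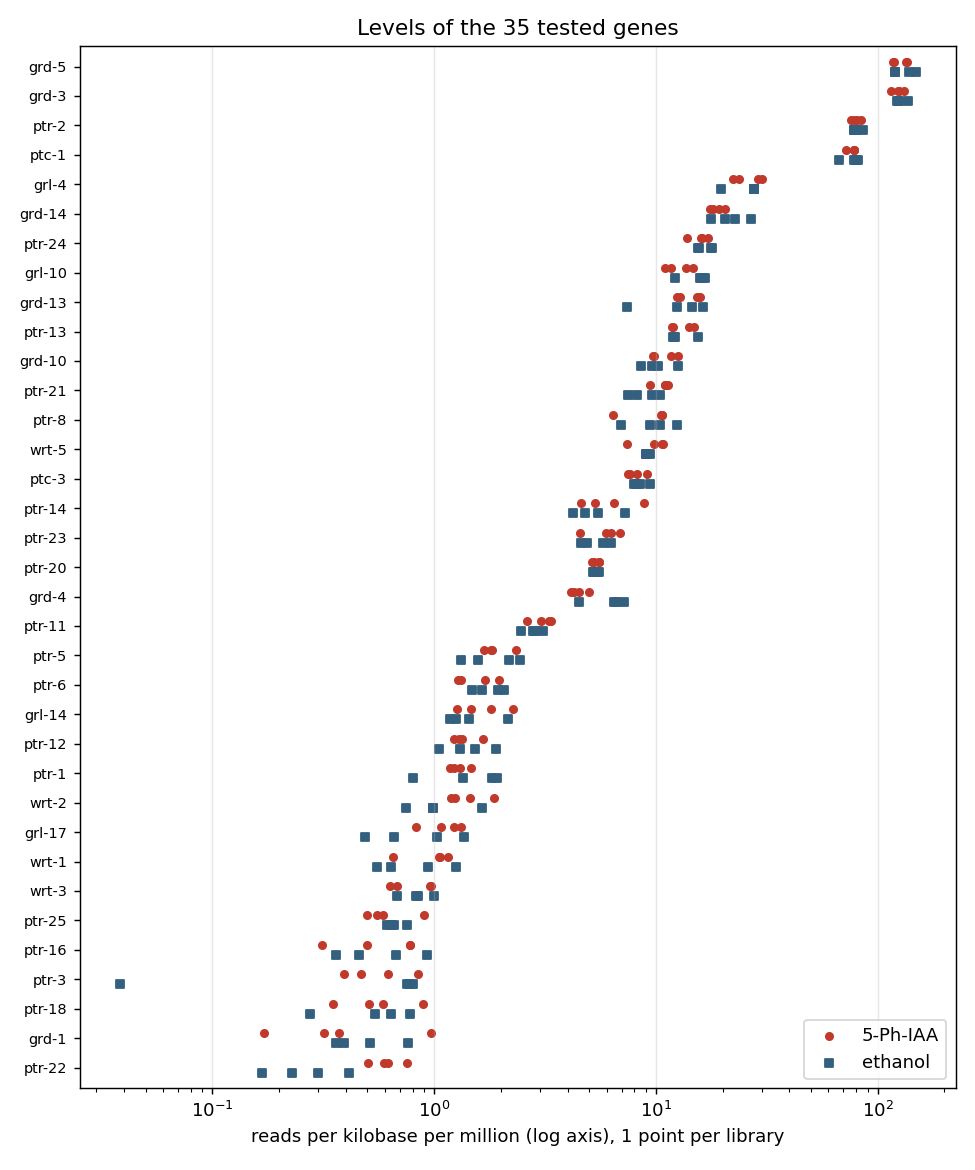
Level of each of the 35 tested genes in every library (1 point per library, horizontal log axis in RPKM), with 5-Ph-IAA above ethanol in each row. The rows run from grd-5 at 129 at the top to ptr-22 at the bottom, and ptr-22 is the 1 gene whose points do not overlap between the groups.

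Among the groundhog genes, which code for secreted proteins with a ground domain, both abundant members had narrow errors. The transcript of grd-3 (WBGene00001692, chromosome IV: 3439655 to 3440453) stood at 79.7, 86.2, 90.7 and 85.3 CPM in the 5-Ph-IAA libraries, against 85.5, 86.0, 94.7 and 84.5 CPM in the ethanol libraries. The groups overlapped, and replicate 3 was the highest in each. The log2 fold change of grd-3 was -0.037 (SE 0.062, 95% interval -0.165 to 0.090, edgeR adjusted p = 0.999). The transcript of grd-5 (WBGene00001694, V: 8619032 to 8619870) stood at 71.0, 61.7, 70.1 and 62.1 CPM with 5-Ph-IAA, against 62.7, 72.5, 77.7 and 62.6 CPM with ethanol. Its values also overlapped, and its log2 fold change was -0.054 (SE 0.078, 95% interval -0.214 to 0.105, edgeR adjusted p = 0.999). For both genes the interval leaves out a 1.5-fold difference in either direction.

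A neighbouring pair of groundhog genes on the X chromosome, grd-14 and grd-4, had log2 fold changes below 0. They lie in a row on the plus strand (X: 8500021 to 8501037 and 8501222 to 8502288). The transcript of grd-4 stood at 3.44, 3.81, 3.28 and 3.18 CPM with 5-Ph-IAA, against 3.44, 5.52, 4.95 and 5.13 CPM with ethanol. It was lower with 5-Ph-IAA in 3 of 4 numbered pairs and level in pair 1, and ethanol replicate 1 lay within the range of the 5-Ph-IAA libraries. Its log2 fold change of -0.48 (SE 0.218, unadjusted p = 0.0361) did not pass after adjustment (edgeR adjusted p = 0.999, and 0.702 with the block). The transcript of grd-14 averaged 11.3 ± 0.744 CPM with 5-Ph-IAA and 13.1 ± 2.25 CPM with ethanol (SD, n = 4 each, log2 -0.22, SE 0.141, edgeR adjusted p = 0.999).

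A row of 3 groundhog genes on chromosome IV shared their strand and position but not their level. They are grd-13, grd-3 and grd-10, which lie on the plus strand between positions 3438312 and 3441841. Per length, the outer members of the row stood at 13.4 RPKM (grd-13) and 10.6 RPKM (grd-10), far under the 125 RPKM of grd-3. The transcript of grd-10, which is known for its expression in seam cells, averaged 6.94 ± 0.904 CPM with 5-Ph-IAA and 6.49 ± 1.09 CPM with ethanol. That of grd-13 averaged 8.61 ± 1.01 CPM with 5-Ph-IAA and 7.75 ± 2.35 CPM with ethanol (SD, n = 4 each), the wider spread resting on ethanol replicate 1 at 4.55 CPM. Their log2 fold changes were 0.10 (SE 0.182) and 0.14 (SE 0.191). Over the 7 tested grd genes the log2 fold changes had a median of -0.054, with 2 above 0 and 5 below, and grd-1 stood at 1.75 ± 1.33 CPM with 5-Ph-IAA and 1.94 ± 0.700 CPM with ethanol.

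The ground-like family, whose genes carry no Hog domain, was mostly near the limit of detection. Of its 31 genes 4 were tested, with log2 fold changes between -0.25 and 0.34 and a median of 0.079. The transcript of grl-4 (WBGene00001713, IV: 7309838 to 7310760) stood at 18.3, 24.7, 19.4 and 23.8 CPM with 5-Ph-IAA, against 16.1, 22.7, 22.7 and 22.8 CPM with ethanol (log2 0.024, SE 0.127, edgeR adjusted p = 0.999). Replicate 1 was the lowest library of both groups for grl-4. The transcript of grl-10 (WBGene00001719, V: 7774545 to 7775759) stood at 11.3, 10.7, 14.3 and 13.3 CPM with 5-Ph-IAA, against 16.1, 11.8, 15.7 and 15.3 CPM with ethanol. It was lower with 5-Ph-IAA in 4 of 4 pairs while the groups overlapped, and did not pass (log2 -0.25, SE 0.139, unadjusted p = 0.0828, edgeR adjusted p = 0.999). Its exons share 18 bases with those of rpl-39, a ribosomal protein gene on the other strand at 599 CPM, and the strand setting of the counting is not given, so reads of grl-10 and rpl-39 cannot be told apart there. The transcript of grl-14 stood at 2.58 ± 0.661 CPM with 5-Ph-IAA and 2.29 ± 0.673 CPM with ethanol, and that of grl-17 at 1.495 ± 0.290 CPM with 5-Ph-IAA and 1.19 ± 0.528 CPM with ethanol (SD, n = 4 each). The same limit holds for grl-17, of whose 1342 exon bases 329 overlap genes on the other strand, among them C56A3.8 at 14.28 CPM, and for grl-14 over 29 bases (sbt-1 at 35.99 CPM).

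Several ground-like genes known from other work were too scarce to be tested. The gene grl-21, reported to act through ptr-24 and the transcription factor TRA-1 on lipid stores, had 3 reads with 5-Ph-IAA and 2 reads with ethanol. The gene grl-2, known from the excretory duct and pore and from socket glia, had 11 reads with 5-Ph-IAA and 14 reads with ethanol. The gene grl-18, a marker of the socket glia of inner labial sense organs, had 16 reads with 5-Ph-IAA and 16 reads with ethanol. At such counts only a large difference could show. With no filter on low counts, the edgeR unadjusted p was 0.743 for grl-21, 0.683 for grl-2 and 0.989 for grl-18. A run of 5 ground-like genes on chromosome V between positions 3551346 and 3575859, from grl-28 to grl-27, had 3 to 7 reads each over all 8 libraries.

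Of the 10 warthog genes 4 were tested, at low levels. The transcript of wrt-5 (WBGene00006951, IV: 4050006 to 4051639), a gene needed for development of the epidermis, was the most abundant of them per length at 9.40 RPKM. It stood at 8.70, 5.98, 7.86 and 8.56 CPM with 5-Ph-IAA, against 7.30, 7.25, 7.36 and 7.55 CPM with ethanol. The ethanol libraries lay within the range of the 5-Ph-IAA libraries (log2 0.084, SE 0.167, edgeR adjusted p = 0.999). The transcript of wrt-2, known from the epidermis, stood at 2.23, 1.91, 1.83 and 2.85 CPM with 5-Ph-IAA, against 1.51, 1.15, 1.52 and 2.52 CPM with ethanol. It was higher with 5-Ph-IAA in 4 of 4 pairs, the groups overlapped, and the difference was within the spread between libraries (log2 0.37, SE 0.320, edgeR adjusted p = 0.999). Its exons share 43 bases with pccb-1 on the other strand, at 251.1 CPM, and reads of the pair cannot be told apart there. The transcripts of wrt-1 and wrt-3 stood at 1.72 ± 0.391 and 1.97 ± 0.435 CPM with 5-Ph-IAA, against 1.48 ± 0.554 and 2.04 ± 0.316 CPM with ethanol (SD, n = 4 each). Of the 2438 exon bases of wrt-3, 1002 overlap a pseudogene on the same strand, so the level of wrt-3 is uncertain.

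The single quahog gene and hog-1 did not pass the filter on low counts. The gene qua-1, which is needed for molting, had the most reads of the 50 untested members, 79 in all, of which 51 came from 5-Ph-IAA and 28 from ethanol libraries. Its libraries stood at 2.43, 1.14, 0.917 and 1.21 CPM with 5-Ph-IAA, against 0.551, 0.460, 2.03 and 0.373 CPM with ethanol, and overlapped through ethanol replicate 3. The gene hog-1 stood at 0.702 ± 0.107 CPM with 5-Ph-IAA and 0.796 ± 0.573 CPM with ethanol (SD, n = 4 each).

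On the receptor side, both Patched genes had levels that the design could measure closely. The transcript of ptc-1 (WBGene00004208, II: 7893222 to 7900515), which codes for a Patched protein needed for cell division in the germ line, had the most reads of all members, 26827 over the 8 libraries. It stood at 398, 366, 398 and 395 CPM with 5-Ph-IAA, against 412, 338, 403 and 398 CPM with ethanol. Replicate 2 was the lowest library of both groups and the others lay close together. The log2 fold change of ptc-1 was 0.0052 (SE 0.058, 95% interval -0.114 to 0.124, edgeR adjusted p = 0.999), so that the interval of the ratio ran from 0.924 to 1.09. The transcript of ptc-3 (WBGene00004210, II: 2845412 to 2852593), which codes for an essential Patched protein known from epithelia, stood at 33.5, 34.2, 40.5 and 36.5 CPM with 5-Ph-IAA, against 37.9, 36.8, 41.7 and 35.4 CPM with ethanol. The groups overlapped (log2 -0.069, SE 0.089, 95% interval -0.253 to 0.115, edgeR adjusted p = 0.999).

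Of the 24 patched-related genes 18 were tested, with a median log2 fold change of 0.0056, 10 above 0 and 8 below. The most abundant per length was ptr-2 (WBGene00004217, I: 3789309 to 3792797). It stood at 245, 235.2, 221 and 227 CPM with 5-Ph-IAA, against 236, 228, 229 and 249 CPM with ethanol, with overlapping groups (log2 -0.021, SE 0.052, 95% interval -0.127 to 0.085, edgeR adjusted p = 0.999). The transcript of ptr-24 (WBGene00004238, X: 13338028 to 13348125), the reported partner of grl-21, stood at 51.1, 47.2, 40.8 and 47.8 CPM with 5-Ph-IAA, against 52.6, 46.1, 52.9 and 46.5 CPM with ethanol (log2 -0.078, SE 0.083, edgeR adjusted p = 0.999). For ptr-2 and ptr-24 the intervals leave out a 1.5-fold difference in either direction. The transcript of ptr-20 stood at 14.7 ± 0.555 CPM with 5-Ph-IAA and 14.6 ± 0.407 CPM with ethanol (SD, n = 4 each). Its log2 fold change was 0.0078 (SE 0.117, 95% interval -0.234 to 0.250), a wider interval than for ptr-2 or ptr-24.

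The member with the lowest unadjusted p without the block was ptr-22 (WBGene00004236, V: 18919221 to 18931379), a patched-related gene at the lower end of the measured range. It stood at 1.72, 1.40, 2.10 and 1.65 CPM with 5-Ph-IAA, against 0.827, 1.15, 0.634 and 0.466 CPM with ethanol. All 4 libraries of 5-Ph-IAA lay above all 4 of ethanol, on 59 and 26 reads in all. Its log2 fold change was 1.16 (SE 0.389, 95% interval 0.360 to 1.97, unadjusted p = 0.00632), and the adjusted p of 0.799 in edgeR did not pass (0.373 with the block). The gene passed the filter on low counts through its 5-Ph-IAA libraries alone, as did no other tested member, so its entry into the test rested on the group in which it was high. It was the 1 tested member of 35 whose groups did not overlap, or 2.86%, beside 2.65% of all tested genes (318 of 12021).

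The transcript of ptr-21 (WBGene00004235, I: 550696 to 556709) was second by unadjusted p without the block. With the block it had the lowest (edgeR unadjusted p = 0.00554, beside 0.00744 for ptr-22). It stood at 31.8, 38.4, 37.2 and 37.3 CPM with 5-Ph-IAA, against 27.8, 25.4, 35.4 and 32.6 CPM with ethanol. It was higher with 5-Ph-IAA in 4 of 4 pairs, though 5-Ph-IAA replicate 1 lay below ethanol replicates 3 and 4. The ratio was 1.19 (log2 0.25, SE 0.104, 95% interval 0.037 to 0.464, unadjusted p = 0.0235), and it did not pass (edgeR adjusted p = 0.999, and 0.321 with the block). Of the other members with the lowest unadjusted p, ptr-14 stood at 18.6 ± 5.48 CPM with 5-Ph-IAA and 16.1 ± 3.83 CPM with ethanol, and ptr-23, known from osmotic balance, at 20.3 ± 3.33 CPM with 5-Ph-IAA and 18.4 ± 2.64 CPM with ethanol. The transcript of ptr-6 stood at 4.81 ± 1.00 CPM with 5-Ph-IAA and 5.47 ± 0.819 CPM with ethanol (SD, n = 4 each, edgeR adjusted p = 0.999 for each of the 3).

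**Figure D3:**
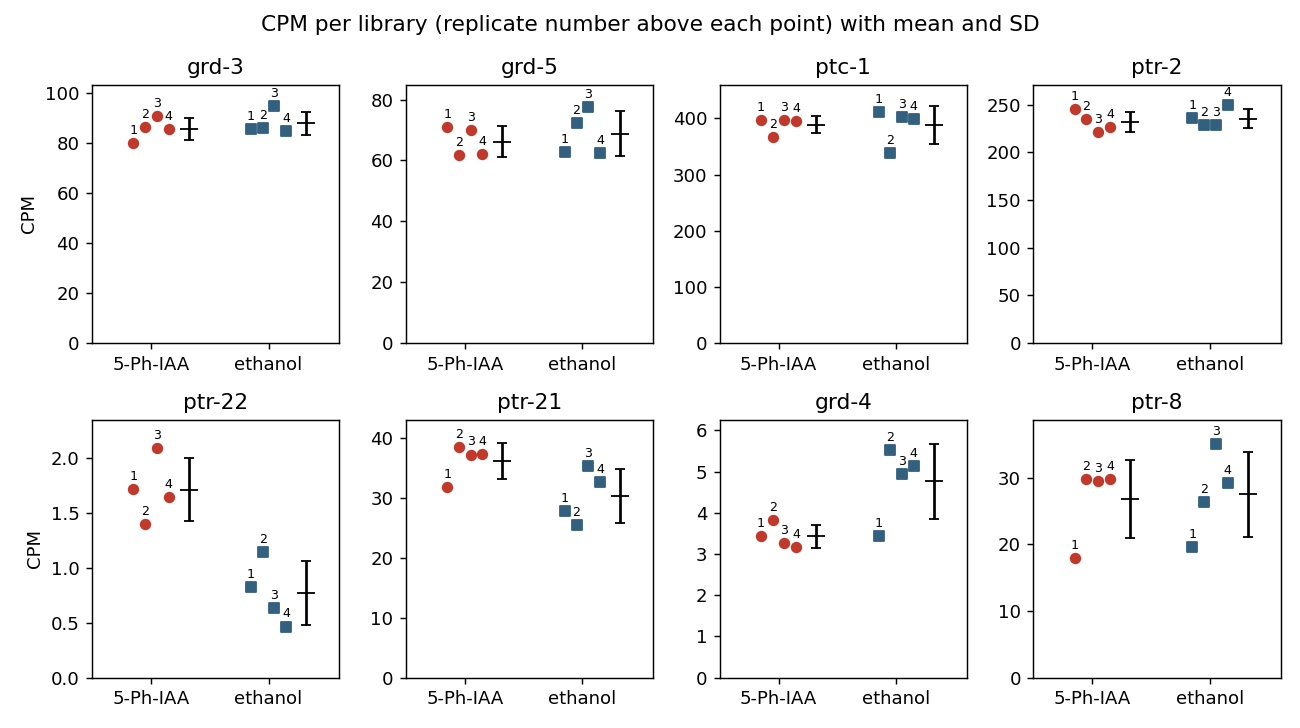
CPM of 8 members in every library (vertical axes from 0), 5-Ph-IAA left of ethanol, with the replicate number above each point and the mean with its SD beside the points. The groups overlap for every gene shown except ptr-22, and ptr-8 is lowest in replicate 1 of both groups.

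Intervals show what size of difference the 35 tested members could hold. The intervals counted here are those of the fit without the block. For 20 of them, or 57.1%, the 95% interval of the fold change lay within 1.5-fold in both directions, and for 30, or 85.7%, within 2-fold, beside 73.4% and 92.7% of all tested genes. The 5 members with wider intervals were ptr-22, ptr-3, grd-1, grl-17 and wrt-2, which had between 85 and 137 reads over the 8 libraries. All 6 grd genes other than grd-1 lay within 2-fold, as did both ptc genes. With the replicate number as a block the SE was smaller for some members, such as ptr-8 (0.0965 against 0.204) and ptr-14 (0.1185 against 0.213). For others, such as ptr-22 (0.417 against 0.389), it was larger.

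**Figure D4:**
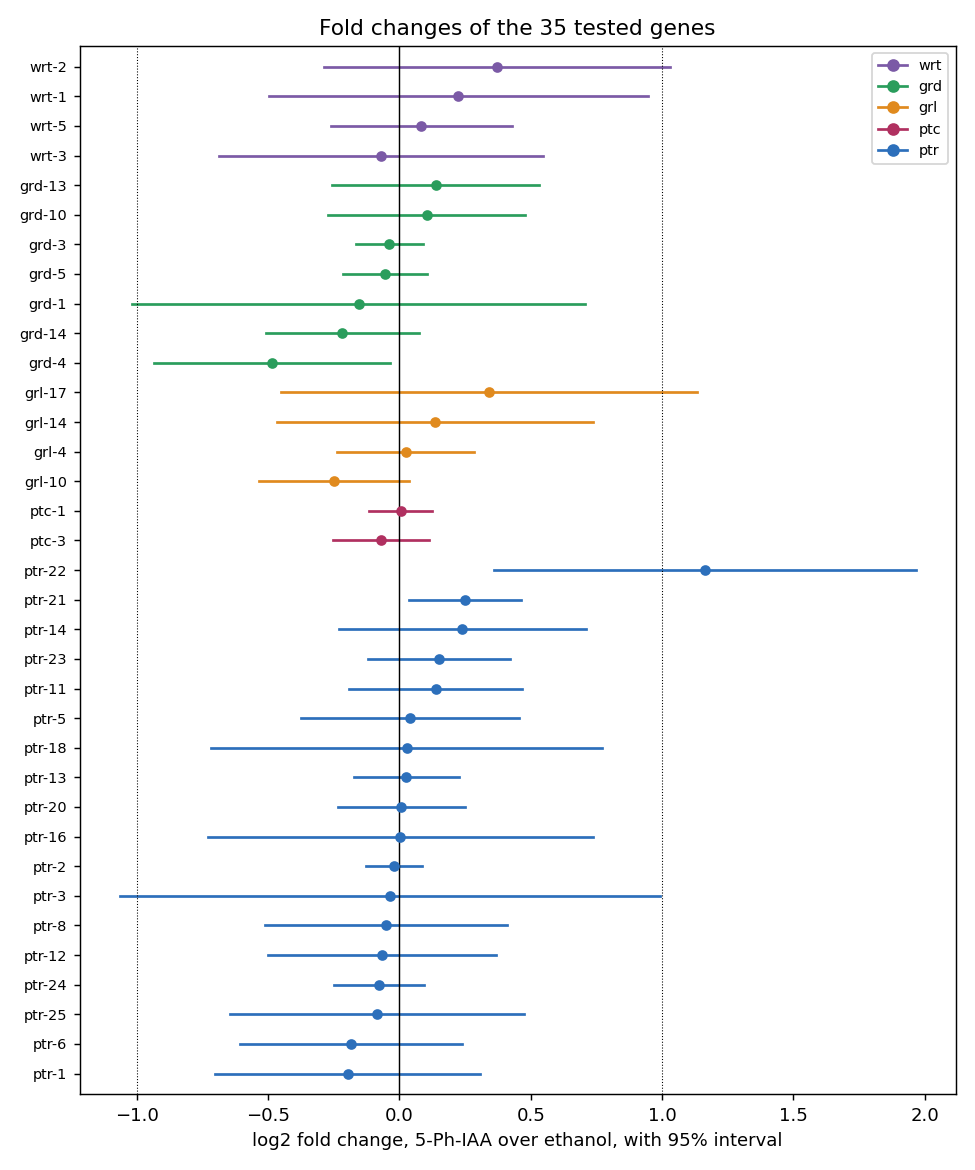
Log2 fold change of 5-Ph-IAA over ethanol (points) with its 95% interval (lines) for the 35 tested genes, grouped and coloured by family, with dotted lines at a 2-fold difference. The fit is the one without the replicate block. Intervals are narrowest for ptr-2, ptc-1 and grd-3, and those of ptr-22, ptr-21 and grd-4 leave out 0 before adjustment.

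Some members varied between libraries of the same treatment by more than between treatments. The transcript of ptr-8 (WBGene00004222, II: 10889279 to 10893277) stood at 18.01, 29.9, 29.5 and 29.8 CPM with 5-Ph-IAA, against 19.6, 26.3, 35 and 29.2 CPM with ethanol, so that replicate 1 was the lowest in both groups. For ptr-14, replicate 1 was instead the highest in both, with 26.1 CPM in the 5-Ph-IAA library (the others 13.6 to 19.2) and 21.4 CPM in the ethanol library (the others 12.5 to 16.2). These 2 genes were singled out for this after their values were seen. Over the 35 tested members the median log2 deviation from each gene's own mean, at a prior count of 2, was -0.052, -0.027, 0.011 and 0.102 in 5-Ph-IAA replicates 1 to 4, and -0.045, -0.053, 0.104 and 0.005 in ethanol replicates 1 to 4. At a prior count of 0.5 the median of 5-Ph-IAA replicate 1 was 0.003, with the opposite sign. The highest medians were in 1 library of each treatment at both prior counts, while the median of all tested genes stayed between 0.001 and 0.009 in every library.

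**Figure D5:**
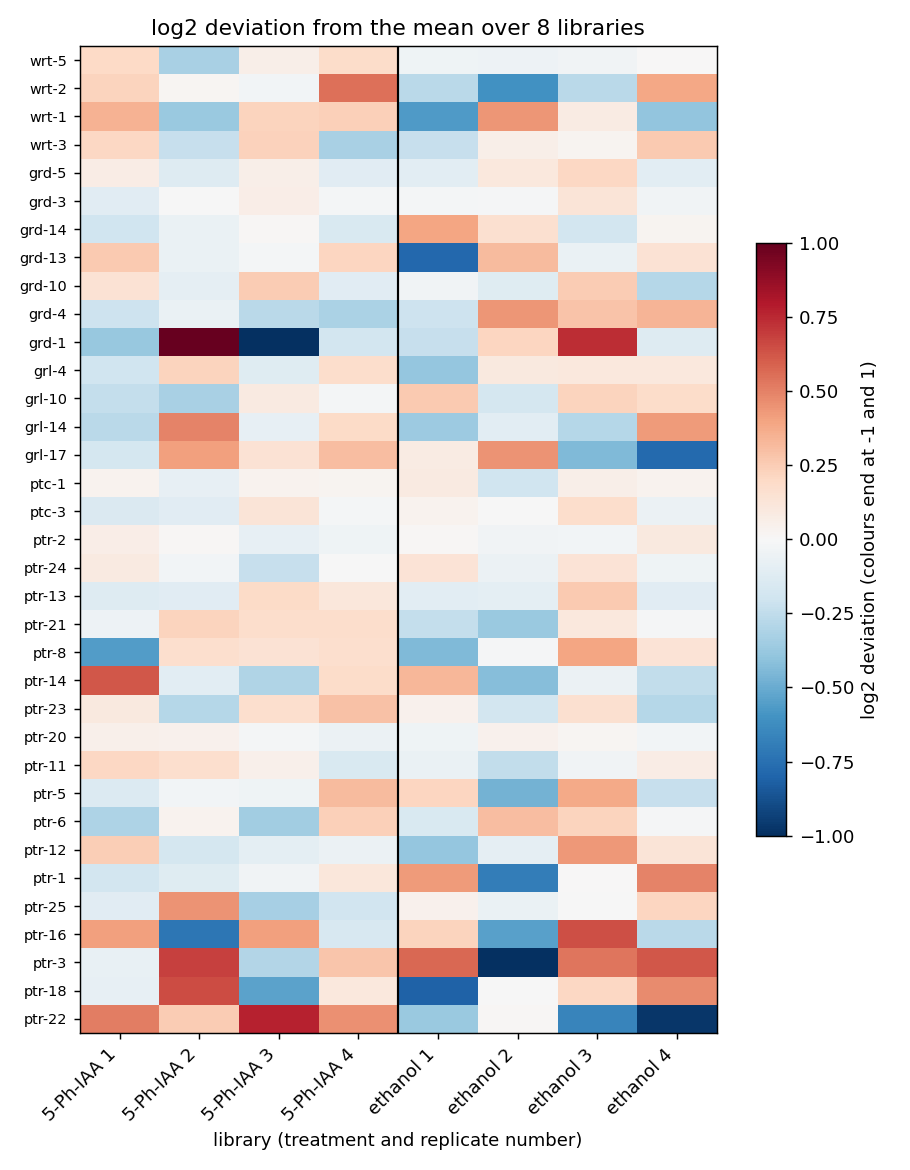
Log2 deviation of each of the 35 tested genes (rows, by family and then by level) from its own mean over the 8 libraries (columns, 5-Ph-IAA left of the line and ethanol right of it). Red is above and blue below the mean. Rows of abundant genes such as ptc-1 and ptr-2 are pale, and in the row of ptr-22 all 4 left cells are red.

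The 50 members that were not tested held 458 reads with 5-Ph-IAA and 427 reads with ethanol in all. In CPM, 19 of them averaged higher with 5-Ph-IAA and 29 lower. With no filter on low counts, 48 of them could be fitted in edgeR. Of these 0 passed after adjustment, beside 0.265% of all 23362 genes in that fit, and 2 had an unadjusted p under 0.05, beside 4.31%. These were grd-16, with 7 reads in 3 of the 5-Ph-IAA libraries and 0 reads in the ethanol libraries (adjusted p = 0.792), and ptr-4, with 26 reads with 5-Ph-IAA and 8 reads with ethanol (adjusted p = 0.792). The gene ptr-4 codes for a patched-related protein of the epidermis that is needed for molting. Its libraries stood at 0.809, 0.254, 1.18 and 0.768 CPM with 5-Ph-IAA, against 0.413, 0.115, 0.380 and 0.0933 CPM with ethanol, and overlapped through 5-Ph-IAA replicate 2.

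By position, 32 of the 85 genes lie on chromosome V, or 37.6%, beside 25.1% of the protein-coding genes in the files, and 19 of these 32 are grl genes. The ptr genes are spread otherwise, with 7 of 24 on chromosome I and 6 on chromosome II. Among the tested members 9 of 35 lie on chromosome II and 7 each on chromosomes IV and V. Within 20000 bases of another member lie 20 genes in 8 groups, among them the rows of grd genes described above and the pair wrt-1 and wrt-10. Exons of 29 members overlap those of a gene on the other strand, 6 of them tested (grl-10, grl-14, grl-17, ptr-1, ptr-8 and wrt-2).

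Of 11 other genes tied to Hedgehog or Patched by homology, 7 were tested, with a median log2 fold change of 0.0078. In either direction 0 of the 7 passed, without the block or with it, beside 0.0998% and 0.732% of all tested genes. The gene tra-1, the worm's Gli-type transcription factor, stood at 27.7 ± 2.60 CPM with 5-Ph-IAA and 27.6 ± 4.28 CPM with ethanol (SD, n = 4 each). The transcript of lrp-1, the worm megalin, stood at 68.6 ± 1.75 CPM with 5-Ph-IAA and 66.6 ± 2.49 CPM with ethanol. The sterol-sensing gene scp-1, which codes for the worm SCAP, stood at 36.8 ± 3.06 CPM with 5-Ph-IAA and 38.7 ± 4.77 CPM with ethanol. The largest difference in this list belonged to ncr-1, a homolog of the sterol transporter NPC1, with 14.5, 18.3, 14.4 and 17.99 CPM with 5-Ph-IAA, against 10.5, 13.0, 12.6 and 15.1 CPM with ethanol. It was higher in 4 of 4 pairs, the groups overlapped through ethanol replicate 4, and it did not pass (log2 0.34, SE 0.136, unadjusted p = 0.0204, edgeR adjusted p = 0.999, and 0.347 with the block). Its paralog ncr-2 stood at 1.90 ± 0.557 CPM with 5-Ph-IAA and 2.06 ± 0.468 CPM with ethanol, and the acyltransferase-like gene hhat-2 at 7.36 ± 1.31 CPM with 5-Ph-IAA and 6.46 ± 1.32 CPM with ethanol. The gene che-14, which codes for a Dispatched-like protein of epithelia and glia, stood at 1.63 ± 0.639 CPM with 5-Ph-IAA and 1.91 ± 0.526 CPM with ethanol. The patched-related glial gene daf-6 (53 reads in all), ptd-2 (44 reads), hhat-1 (26 reads) and phg-1 (10 reads) were not tested.

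Of 40 genes of molting and the apical matrix, 27 were tested, with a median log2 fold change of 0.058. Of these, 16 were above 0, beside 49.7% of all tested genes. Without the block or with it 0 passed, beside 0.0998% and 0.732% of all tested genes. At an unadjusted p under 0.05 there were 3 of the 27, beside 4.41% of all tested genes. They were mlt-4, mlt-8 and dpy-9, with log2 fold changes of 0.47, 0.85 and 0.86 (edgeR adjusted p = 0.999 for each).

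Library depth, counted as reads assigned to genes, ranged between 7354710 and 10893322. The daf-15 transcript stood at 119.1 ± 6.20 CPM with 5-Ph-IAA and 121 ± 6.89 CPM with ethanol, which does not check the treatment, since the degron acts on the protein. Epidermal and seam markers summed to 5449 to 6710 CPM with 5-Ph-IAA and 6309 to 6845 CPM with ethanol, and glial and excretory markers to 193 to 230.3 CPM with 5-Ph-IAA and 196 to 229 CPM with ethanol. Neuronal markers summed to 366 to 389.8 CPM with 5-Ph-IAA and 382 to 398 CPM with ethanol. The summed germline, muscle and intestine markers also overlapped between the groups, and sperm and early embryo markers summed to at most 10.2 and 8.34 CPM in any library. Few genes carried some of these sums: with 5-Ph-IAA, col-19 and col-119 averaged 1642 and 4196 CPM, against 1782 and 4509 CPM with ethanol. In the same way vha-5 averaged 154 CPM in each group, and vit-2 and vit-5 made up most of the intestine sum. At an edgeR unadjusted p under 0.05 were rab-3, 1 of 10 neuronal markers (log2 -0.41), and elt-7, 1 of 10 intestine markers (log2 -0.44). No other marker was, beside 4.41% of all tested genes. Of the markers in these lists 0 passed, without the block or with it, beside 0.0998% and 0.732% of all tested genes. Their lowest edgeR adjusted p was 0.999 without the block and 0.265 with it. The part of the markers in the values of the members was not tested.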

How the data were processed

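The labels assign 4 libraries to 5-Ph-IAA and 4 to ethanol. Per the labels' protocols, RNA was extracted with Trizol and column purification, and the library kit was VAHTS Universal V8. The authors deposited, for each library, a table of unnormalized gene counts. TopHat2, HTSeq, DESeq2 and FastQC 0.11.5 appear in the submitters' processing notes, without their roles. Strand setting, annotation and genome build: not given in the sources used here. Lines naming no gene were left out of library sizes. The no-feature line held 47.7% to 48.1% of each file's counts, reads aligning more than once 4.14% to 4.55% and ambiguous reads 0.296% to 0.390%. As the strand setting is not given, the no-feature line may include reads on the other strand of a gene, which was not tested. Ensembl release 115 (WBcel235) held 46484 of the identifiers and gave coordinates (1-based) and exon lengths, and 43720 had a symbol.

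The filter was filterByExpr (here at least 1.21 CPM in 4 libraries). Scaling used TMM factors (0.986 to 1.02), and the groups were tested by quasi-likelihood in edgeR (edgeR 4.0.16, R 4.3.3, robust, two-sided), adjusted by Benjamini-Hochberg over all 12021 genes. SE is the absolute log2 fold change over the square root of F, and intervals use it. Only the edgeR fit without the block was run on simulated data, with a common dispersion for all genes. Changed genes were simulated only among those with a mean of at least 50 reads, so the run does not cover members with fewer reads. Alternatives used RLE and upper quartile factors, other filters, DESeq2 1.42.0, limma-voom (limma 3.58.1), the replicate number as a block, and each library left out.

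Nothing says what the replicate numbers mark. Deviations from group means correlated at 0.1474, 0.1305, 0.1002 and 0.1441 between same-numbered libraries, each above the bar of 0.1 set for pairing. Between others they correlated at -0.099 to 0.0103, values that centring each group on its own mean in part pushes below 0. The fit with the block was kept as an alternative, because the labels do not say what the number marks. Whether replicates are separate cultures is not said, and the p-values rest on a library spread that may be technical. All replicate pairs differed beyond sampling noise (chi-square over its degrees of freedom, 2.46 to 8.12).

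Members and lists were chosen with earlier results of these data known. Named are the 10 members with the lowest unadjusted p without the block, the 8 with the highest RPKM, ptc-1, ptc-3, daf-6, che-14, and members whose libraries do not overlap. Other members, among them grd-16, ptr-3 and ptr-4, were named for a known role, position or count after their values were seen.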

Additional observations from a re-analysis of the deposited data

Results flagged for a closer look

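Single libraries stood apart from the other 3 of their group for 6 of the 70 sets of 4 libraries checked (35 tested members in each treatment), judged by the gap to the nearest library against the whole range of the group. Chance marks about 1 set in 20, and the cause was not tested. The transcript of ptr-3 stood at 0.115 CPM in ethanol replicate 2, on 1 read, against 2.28 to 2.42 CPM in the other ethanol libraries. The transcript of grl-4 stood at 16.1 CPM in ethanol replicate 1, with the others at 22.7 to 22.8 CPM. That of ptr-8 stood at 18.01 CPM in 5-Ph-IAA replicate 1, with the others at 29.5 to 29.9 CPM. That of ptc-1 stood at 366 CPM in 5-Ph-IAA replicate 2, with the others at 395 to 398 CPM. In ethanol replicate 3, grd-3 stood at 94.7 CPM (the others 84.5 to 86.0) and ptr-13 at 53.0 CPM (the others 40.9 to 41.4). For all of these genes except ptr-3, the library of the same number was also the extreme one, in the same direction, in the other treatment. An example is ptr-13, highest in 5-Ph-IAA replicate 3 at 50.6 CPM. For ptr-3, 5-Ph-IAA replicate 2 was instead the highest of its group at 2.54 CPM.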

How the results depend on the processing

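The call of 0 members in either direction was met under all 21 alternatives, the replicate block among them. The number of all genes past the threshold, 12 here, moved: it was 62 with no filter, 29 with DESeq2, 88 with the replicate block, 24 with the block in DESeq2, and 5 with a mean of at least 50 reads, a filter added after the data were seen because the planned minimum of 1 CPM kept more genes. Leaving out 1 library gave 6 to 19, and the block without replicates 1, 2, 3 and 4 in turn gave 82, 51, 78 and 92. The median log2 fold change of the members, 0.0052, ranged from -0.032 to 0.076 on leaving out 1 library (0.076 without ethanol replicate 3) and from -0.012 to 0.090 under the block (0.090 without replicate 3). Of the lists, 1 gene, the muscle marker unc-54, passed in 1 setting, the block without replicate 2 (log2 -0.23, adjusted p = 0.0384). Among the 16 members picked by the naming rule the sign turned for 6, and of the other tested members ptr-3 and ptr-16 (log2 -0.037 and 0.0033) also had the opposite sign with the block (0.020 and -0.023). Leaving out 1 library gave -0.1005 to 0.0048 for grd-5, -0.077 to 0.099 for grl-4, -0.055 to 0.035 for ptc-1 and -0.049 to 0.0083 for ptr-2. Under the block with 1 replicate number left out, the turned values were 0.0058 for grd-5, -0.0048 for grl-4, -0.027 for ptc-1, 0.017 for ptr-2, -0.012 for ptr-23 and 0.0085 for ptr-24. The log2 fold change of ptr-22 stayed between 0.951 and 1.51 in the 20 alternatives that fitted it. These fits reuse the same libraries and are no separate support, and in the main fit ptr-22 passed the filter through its 5-Ph-IAA libraries alone. For the 50 untested members, with at most 79 reads over the 8 libraries, depth limits any statement on a difference.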
